A study of Mus musculus with 6 samples.

Results

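The genes described here encode channels that turn touch, stretch, acid, heat or cold into electrical signals in sensory neurons, together with a channel-modulating membrane protein. They are Piezo1, Piezo2, Stoml3, Asic1, Asic2, Asic3, Trpv1, Trpv2, Trpm8 and Trpa1, chosen as a listed set of 10 of the 24264 genes in the deposited table. The RNA came from lumbar dorsal root ganglia (DRG) of mouse embryos at E12.5, on a mixed C57/Bl6 x 129/SvEv background. The miR_cKO group (n = 3) was homozygous for a floxed miR-183-96-182 cluster and carried Wnt1-Cre, a recombinase under a promoter active in the neural crest, which gives rise to both the sensory neurons and their glia. The control group (n = 3) comprised controls 1 and 3, titled Wnt-Cre, and control 2, titled WT, so 1 control library differed from the others in the recombinase as well. The labels do not say whether 1 library holds 1 embryo or several, or which cluster alleles the Cre-carrying controls had. The p-values below therefore measure the spread between these libraries.

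Piezo channels are large trimeric pores opened by membrane tension, and Piezo2 is the main touch and proprioception channel of mammalian sensory neurons. Acid-sensing ion channels (ASICs) are proton-gated sodium channels that assemble as trimers of like or unlike subunits, and several have been linked to mechanosensation and muscle pain. The transient receptor potential (TRP) channels include detectors of noxious heat and capsaicin (Trpv1), of cooling and menthol (Trpm8) and of irritant chemicals (Trpa1). In mouse DRG these channels come on in stages as neurons leave the cell cycle and split into classes. MicroRNAs of the deleted cluster pair with messages through bases 2 to 8, the seed, usually in the 3′ UTR.

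The mature strands of the 3 deleted microRNAs are shown because the matches searched below were taken from their seeds. The seed is in capitals (RefSeq, GRCm38.p6, chromosome 6, minus strand).
mmu-miR-183-5p: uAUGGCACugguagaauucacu
mmu-miR-96-5p: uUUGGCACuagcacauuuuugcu
mmu-miR-182-5p: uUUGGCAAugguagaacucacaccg
Seed matches were searched in the 3′ UTR of the main GENCODE transcript of each channel. The letters searched were GTGCCAT and TGCCATA for miR-183, GTGCCAA for miR-96, TTGCCAA for miR-182, and TGCCAAA, which miR-96 and miR-182 share. All 10 channels had an annotated 3′ UTR, and 1 of them held a match. The match lay in Asic2, on the minus strand of mm10 chromosome 11 at 80880911 to 80880917, from base 140 of a UTR of 888 bases. It is printed in the sense of the message with the match in capitals.
Asic2 3′ UTR site: cgaacttcTGCCAAAcctcacct
Across 11992 tested genes with a 3′ UTR, 33.6% held at least 1 such match. Long UTRs hold more: 46.2% of tested genes with a UTR near the length of that of Asic1 (1990 bases) held a match, against 6.67% near that of Asic3 (210 bases). No match in a window says only that these letters are missing from it. No other annotated coding transcript of the remaining 9 channels held a match. For Asic1, Asic3 and Trpa1 the only other one has no annotated 3′ UTR, and Stoml3 has no other, so no match was possible. Some of those of Piezo2 and Trpv1 also lack an annotated 3′ UTR.

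Values are RPKM, reads per kilobase of transcript and per M mapped reads, with an estimated 19.8 to 23.9 M reads per library. The ganglia carried the defining transcripts of sensory neurons and glia, with Isl1 at 143 to 202 RPKM, Pou4f1 at 66.1 to 83.2 RPKM and Sox10 at 38.4 to 58.6 RPKM. The cluster itself gave no check of the genotype, since Mir183, Mir96 and Mir182 were listed at 0 in all 6 libraries. By Xist and 4 Y-linked genes miR_cKO 1 read as female and the other 5 libraries as male, so sex was not balanced between the groups. Xist was at 96.0 RPKM in miR_cKO 1, against 0.0890 RPKM or less elsewhere. The Y-linked genes were at 0.042 RPKM or less in miR_cKO 1, against 5.74 RPKM or more elsewhere. Controls 2 and 3 stood apart in muscle markers, whose 9 genes summed to 134 and 102 RPKM there, against 4.84 to 18.4 RPKM in the miR_cKO libraries and 7.05 RPKM in control 1.

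The channels fell into 3 tiers. Asic1, Trpv2, Piezo2, Asic2 and Piezo1 were above 1 RPKM in all 6 libraries. Asic3 and Trpv1 were above 1 RPKM in 3 libraries each, and Trpa1, Stoml3 and Trpm8 never exceeded 0.118 RPKM. Asic1 was the most abundant (mm10 chromosome 15, 99670368 to 99701130), with a mean over the 6 libraries of 22.9 RPKM, which placed it at the 86.2nd percentile of all genes in the table. Trpv2 followed at 12.4 RPKM, Piezo2 at 6.69, Asic2 at 4.91, Piezo1 at 3.91, Asic3 at 1.53 and Trpv1 at 1.08 RPKM.

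**Figure D1:**
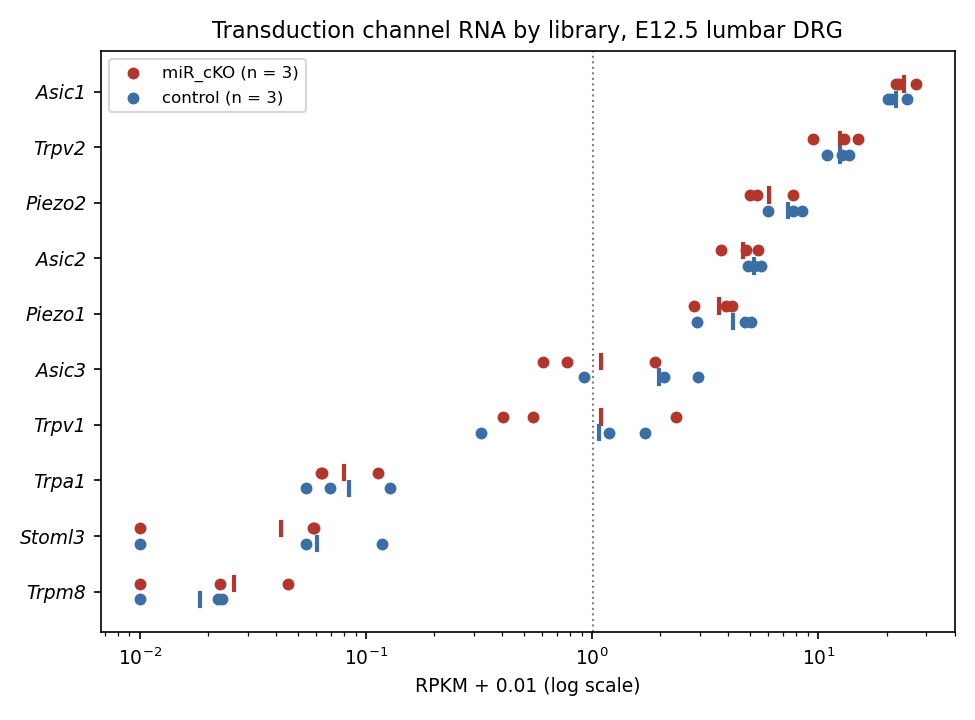
RPKM plus 0.01 of each channel on a log scale, with 1 point per library, a bar at the group mean, and a dotted line at 1 RPKM. Asic1 is highest at 20.2 to 27.0 RPKM, Asic3 and Trpv1 straddle the line in both groups, and Trpa1, Stoml3 and Trpm8 lie far to its left.

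The order was tested between neighbours within each library, on log2(RPKM + 1). The neighbours and their direction were taken from the means of the same 6 libraries, so these p-values do not come from an order set beforehand. Asic1 exceeded Trpv2, Trpv2 exceeded Piezo2, Piezo1 exceeded Asic3 and Trpv1 exceeded Trpa1 in 6 of 6 libraries (two-sided exact sign-flip permutation p = 0.03125 each, the smallest 6 libraries allow). Adjusted over the 9 neighbour pairs (Benjamini-Hochberg), each of these stood at 0.0703, so none passed 0.05. Piezo2 was above Asic2 in 5 of 6 libraries by a mean of 0.37 on the log2 scale (SD 0.28), and Asic2 above Piezo1 in 4 of 6 by 0.28 (SD 0.31). For those neighbours, for Asic3 with Trpv1 and for the members of the lowest tier, the exact test did not pass 0.05 either (permutation p of 0.0625 to 0.1875).

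Of the touch channels, Piezo2 was the more abundant in every library. Piezo2 stood at 7.73, 5.33 and 4.98 RPKM in miR_cKO 1 to 3, against 7.69, 5.96 and 8.44 RPKM in controls 1 to 3. The groups overlapped, because miR_cKO 1 lay within the control range while miR_cKO 2 and 3 held the lowest values. Its log2 change was -0.26 (SE 0.18, 95% interval -0.68 to 0.16, limma adjusted p over all genes = 1.00), at 1075 to 1804 estimated reads per library. Piezo1, the more widely expressed relative with roles in vessels and red cells, was at 2.81, 4.13 and 3.90 RPKM in miR_cKO 1 to 3, against 2.89, 4.71 and 5.001 RPKM in controls 1 to 3. Its lowest values were in miR_cKO 1 and control 1, on either side of the genotype. Its log2 change was -0.16 (SE 0.20, 95% interval -0.63 to 0.31). Piezo1 exons overlap those of Ctu2 on the opposite strand, and no source used here states whether counting used strand, so reads of the pair may not be told apart. Ctu2 stood at 5.34 to 5.54 RPKM in miR_cKO and at 4.85 to 6.98 RPKM in control.

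The balance of the Piezo pair varied within both groups. Piezo2 made up 73.4, 56.3 and 56.1% of their summed RPKM in miR_cKO 1 to 3, against 72.7, 55.8 and 62.8% in controls 1 to 3 (two-sided exact permutation p = 1, n = 3 each). The sum itself was 10.5, 9.45 and 8.87 RPKM in miR_cKO, against 10.6, 10.7 and 13.4 RPKM in control. These groups did not overlap, although miR_cKO 1 and control 1 were nearly level, and the exact permutation p of 0.1 is the smallest that n = 3 each can give. This sum was 1 of 9 sums and ratios computed, and groups failed to overlap in 10.9% of all tested genes.

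Stoml3, a stomatin-family protein that sensitizes Piezo channels in adult touch neurons, was close to silent at this stage. It was at 0.0481, 0.0488 and 0 RPKM in miR_cKO 1 to 3, against 0, 0.0446 and 0.107 RPKM in controls 1 to 3. The deposited steps correspond to 2 reads over the 3 miR_cKO libraries and 3 reads over the 3 controls, or to a whole multiple of these, since the implied length of 939 bases is shorter than the 1780 bases of its coding transcript. No difference was detectable at this depth. Its relatives were on, with Stom at 6.30 RPKM, Stoml1 at 10.9 RPKM and Stoml2, a mitochondrial family member, at 26.8 RPKM as means of all libraries.

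Among the proton-gated channels, Asic1 varied least. It was at 22.7, 22.1 and 27.0 RPKM in miR_cKO 1 to 3, against 20.8, 20.2 and 24.7 RPKM in controls 1 to 3. The ranges overlapped and the highest library of each group was its replicate 3. The log2 change was 0.12 (SE 0.11, 95% interval -0.13 to 0.38). Asic2, a subunit that joins Asic1 and Asic3 in mixed channels, was at 4.77, 5.41 and 3.68 RPKM in miR_cKO, against 5.19, 5.55 and 4.85 RPKM in control. MiR_cKO 3 was the lowest library for Asic2 and the highest for Asic1. Asic2 had a log2 change of -0.15 (SE 0.13, 95% interval -0.46 to 0.16), so the estimate for the channel with the seed match shown above lay below 0, with an interval that includes 0.

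Asic3 (mm10 chromosome 5, 24413392 to 24417835), a subunit of acid-sensing channels in muscle and skin afferents, had the lowest ratio of group means of the tested channels. It was at 1.89, 0.599 and 0.761 RPKM in miR_cKO 1 to 3, against 2.07, 0.906 and 2.94 RPKM in controls 1 to 3, from 26 to 116 estimated reads per library. The group means were 1.08 ± 0.701 and 1.97 ± 1.02 RPKM (SD, n = 3 each), a ratio of 0.548. MiR_cKO 1 exceeded control 2, so the groups overlapped, and the spread within them was wide. The log2 change was -0.50 (SE 0.32, 95% interval -1.27 to 0.27, limma adjusted p = 1.00, unadjusted p = 0.165). The interval allows a fall of more than a log2 unit as well as a small rise.

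**Figure D2:**
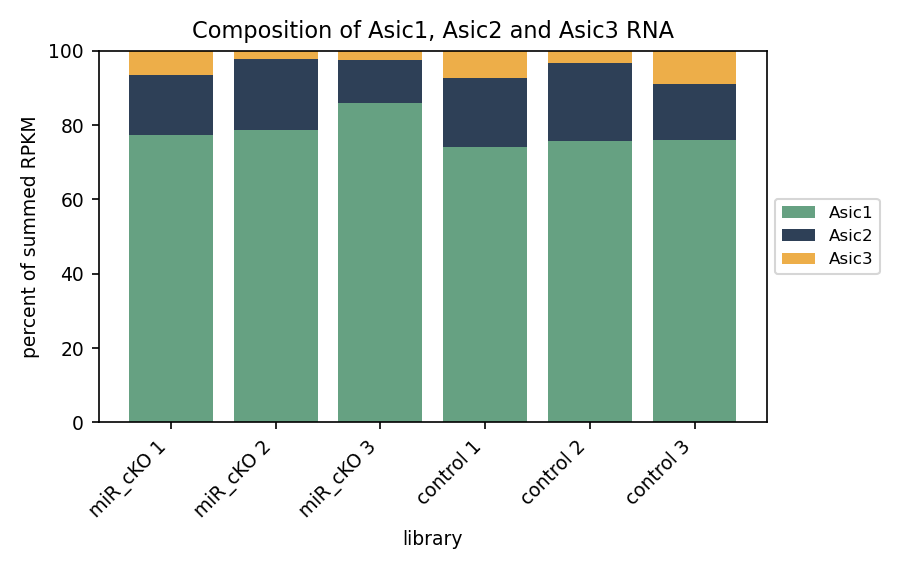
Percent of the summed RPKM of Asic1, Asic2 and Asic3 in each library, with miR_cKO 1 to 3 on the left and controls 1 to 3 on the right. Asic1 makes up 77.3 to 85.9% in miR_cKO and 74.2 to 76.0% in control, and the Asic3 segment is thinnest in miR_cKO 2 and 3.

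Asic1 made up 77.3, 78.7 and 85.9% of the summed RPKM of the 3 ASIC genes in miR_cKO 1 to 3, against 74.2, 75.8 and 76.0% in controls 1 to 3. The groups did not overlap, with means of 80.6 ± 4.60% and 75.3 ± 1.014% (SD, n = 3 each, two-sided exact permutation p = 0.1, the smallest possible). MiR_cKO 1 lay close to controls 2 and 3, and this share was another of the 9 sums and ratios. The share of Asic3 was 6.43, 2.13 and 2.42% in miR_cKO, against 7.38, 3.40 and 9.04% in control (exact permutation p = 0.2). The summed RPKM of the 3 genes was 29.6 ± 1.67 in miR_cKO and 29.1 ± 3.05 in control (exact permutation p = 0.7).

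The heat and capsaicin receptor Trpv1 (mm10 chromosome 11, 73234292 to 73261242) was already transcribed, but at levels that differed several-fold between libraries of a group. Trpv1 was at 2.34, 0.395 and 0.535 RPKM in miR_cKO 1 to 3, against 1.18, 0.312 and 1.70 RPKM in controls 1 to 3, from 132, 22 and 28 and from 64, 19 and 86 estimated reads. The highest library was 7.49 times the lowest, and each group held both high and low libraries. The group means were 1.09 ± 1.08 and 1.06 ± 0.700 RPKM (SD, n = 3 each). The log2 change was -0.036 (SE 0.40, 95% interval -0.98 to 0.91), an interval that spans large differences either way.

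Trpv2, a heat-activated relative of Trpv1 that has also been described in growing axons, was at 15.0, 13.03 and 9.42 RPKM in miR_cKO 1 to 3, against 13.6, 10.9 and 12.7 RPKM in controls 1 to 3. The groups overlapped throughout, and the means of 12.47 ± 2.81 and 12.4 ± 1.39 RPKM (SD, n = 3 each) were nearly equal. The log2 change was -0.0096 (SE 0.17, 95% interval -0.40 to 0.38). Trpv1 thus made up 13.5, 2.94 and 5.38% of the summed Trpv1 and Trpv2 RPKM in miR_cKO 1 to 3, against 7.95, 2.79 and 11.8% in controls 1 to 3.

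The irritant receptor Trpa1 had a few reads in every library, 4 to 12, and the cold receptor Trpm8 had 3 at most. Trpa1 was at 0.0532, 0.0539 and 0.103 RPKM in miR_cKO 1 to 3, against 0.0441, 0.118 and 0.0593 RPKM in controls 1 to 3. That is 19 reads over the miR_cKO libraries (95% exact Poisson interval 11.4 to 29.7) and 21 over the controls (13 to 32.1); such intervals cover counting error only. Trpm8 had 3, 0 and 1 reads in miR_cKO 1 to 3 and 1, 0 and 1 reads in controls 1 to 3. At these counts no difference between the groups was detectable, and low transcription cannot be told from background reads.

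**Figure D3:**
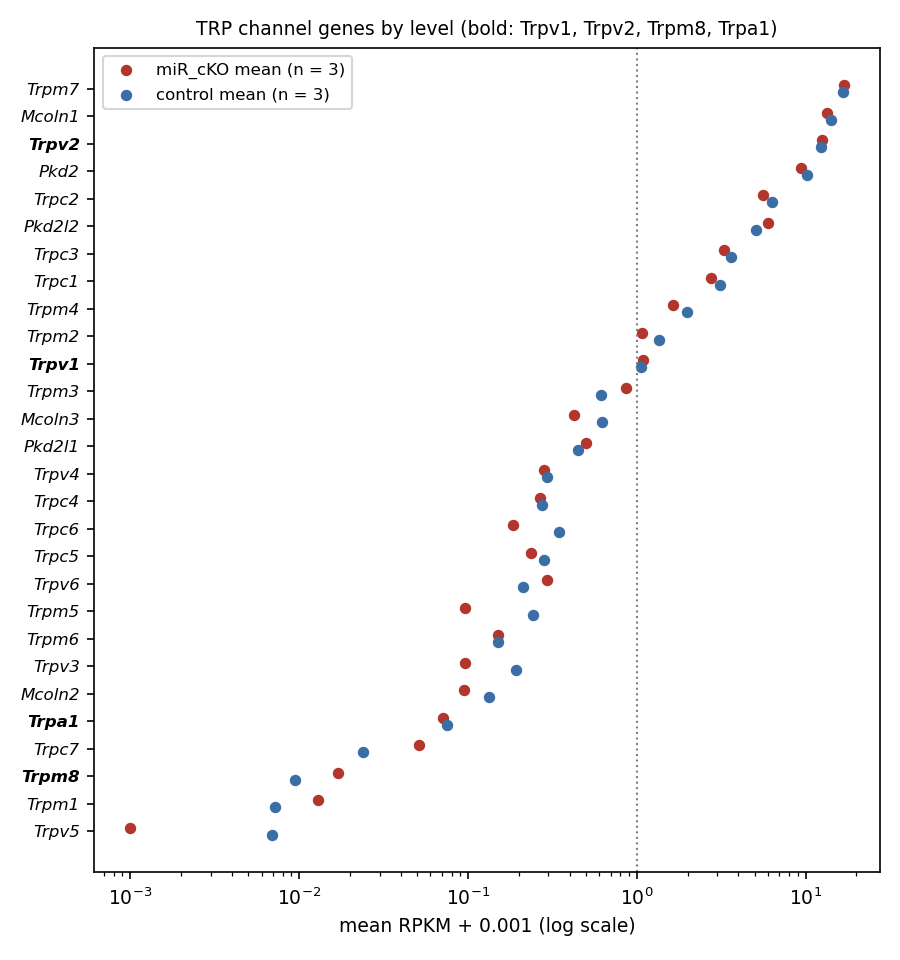
Group means in RPKM plus 0.001, on a log scale, of 28 TRP channel genes ordered by level, with a dotted line at 1 RPKM. Trpv2 ranks 3, Trpv1 ranks 11, Trpa1 ranks 24 and Trpm8 ranks 26.

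Within the wider TRP family of 28 genes, Trpv2 ranked 3, behind the widely expressed channel-kinase Trpm7 at 16.8 RPKM and the lysosomal channel Mcoln1 at 13.8 RPKM, and ahead of the polycystin Pkd2 at 9.79 RPKM. Trpv1 ranked 11, Trpa1 24 and Trpm8 26. Of 24 further TRP genes 9 were tested, none passed in either direction, and 2 had a log2 change above 0 and 7 below 0, with a median of -0.11. Trpm7, Mcoln1 and Pkd2 had changes of 0.015, -0.066 and -0.11.

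None of the channels passed the comparison across all genes. Of 13118 genes with 1 RPKM or more in at least 3 libraries, limma called 8, or 0.061%, at a Benjamini-Hochberg adjusted p under 0.05, with 7 higher (0.0534%) and 1 lower (0.00762%) in miR_cKO. Of the 10 channels 7 were tested, and 0 passed; 0 had an unadjusted p under 0.05, which 5.16% of all tested genes had. The groups overlapped for all 10 channels. Among tested genes, 4.63% were higher and 6.24% lower in miR_cKO without overlap, and 7.23% of genes below the filter with a value above 0 did not overlap. At such shares few of 10 genes would lack overlap, so this does not set the channels apart. Asic1 had a log2 change above 0 and the other 6 tested channels had one below 0, with a median of -0.15, while 59.6% of all tested genes were below 0 and their median was -0.024. Asic3 and Trpv1 entered the test through 3 libraries each, 2 controls and 1 miR_cKO. Exact permutation tests over the libraries gave p values of 0.2 for Asic3, 0.3 for Piezo2 and 0.4 or more for each of the other channels. Trpa1, Stoml3 and Trpm8 received no limma call because they were below the filter.

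**Figure D4:**
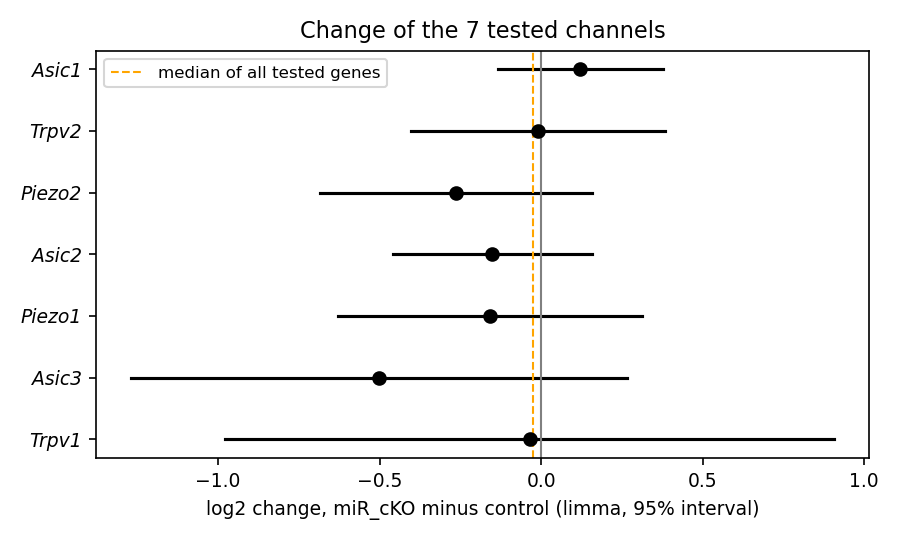
Log2 change (miR_cKO minus control) of the 7 tested channels, with 95% intervals from limma; the dashed line is the median of all tested genes, -0.024. All intervals cross 0, and those of Trpv1 and Asic3 are the widest, from -0.98 to 0.91 and from -1.27 to 0.27.

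What separated the libraries most for several channels was a division that ran across the genotypes. Trpv1, Asic3 and Piezo2 each had their 3 highest values in miR_cKO 1 and controls 1 and 3, and their 3 lowest in miR_cKO 2 and 3 and control 2. Across the 6 libraries, log2 levels of Piezo2 correlated with those of Asic3 at r = 0.97 and with those of Trpv1 at 0.86, and Asic3 with Trpv1 at 0.85. These are the highest of 21 pairs over 6 libraries, whose RPKM share a total within each library, given as a description. Trpv2 was related more weakly, at 0.70 with Piezo2 and 0.69 with Trpv1. Asic1 and Asic2 ran against each other at -0.90. Within the groups, the log2 SD of Trpv1 was 0.62 and that of Asic3 0.50, larger than those of 96.2% and 92.9% of tested genes of like level.

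**Figure D5:**
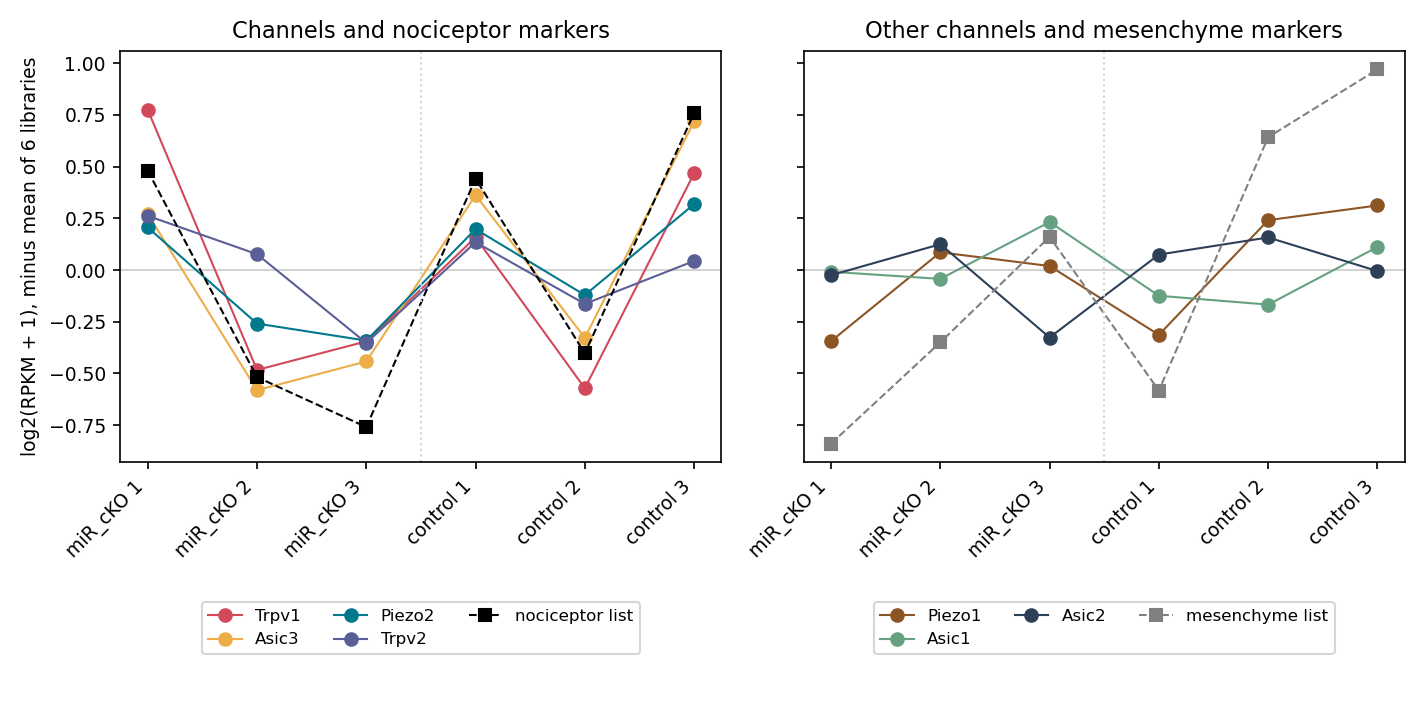
Log2(RPKM + 1) of the tested channels minus their mean over the 6 libraries, with the median of a marker list drawn dashed for comparison; miR_cKO libraries are left of the dotted line. On the left, Trpv1, Asic3 and Piezo2 are high in miR_cKO 1 and controls 1 and 3, as is the nociceptor list; on the right, Piezo1 is lowest where the mesenchyme list is lowest, in miR_cKO 1 and control 1.

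Most nociceptor markers divided the libraries in the same way, 6 of 7, with Calca as the exception; of all 13118 tested genes, 1638 did so. The 7 genes of the nociceptor list, among them the sodium channel Scn10a and the transcription factor Prdm12, summed to 177, 128 and 100.2 RPKM in miR_cKO 1 to 3, against 187, 133 and 178 RPKM in controls 1 to 3. Scn10a was at 22.1, 7.45 and 6.72 RPKM in miR_cKO, against 22.8, 8.72 and 27.7 RPKM in control. Of this list 6 genes were tested, 0 passed and 6 had a log2 change below 0, with a median of -0.40. Calca, which encodes the peptide CGRP, was at 0.759, 0.533 and 1.51 RPKM in miR_cKO, against 0.969, 1.245 and 0.749 RPKM in control. The division was not particular to nociceptor markers, since 4 of 10 general sensory neuron markers (Isl1, Avil, Prph and Ret) showed it too. Avil, an actin-binding protein of sensory neurons, was at 22.5, 11.6 and 11.2 RPKM in miR_cKO, against 19.8, 8.07 and 21.9 RPKM in control. The general list, of which the neuronal tubulin Tubb3 (654 to 915 RPKM) made up the largest portion, was narrower as a whole, summing to 1636, 1438 and 1181 RPKM in miR_cKO and to 1433, 1285 and 1547 RPKM in control. In bulk tissue, fewer cells of a type and less RNA per cell cannot be told apart, and the part of these markers in the channel values was not tested.

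Of the markers of low-threshold mechanoreceptors and proprioceptors, classes in which Piezo2 is also known, 2 of 7 (Ret and Etv4) and 0 of 7 divided the libraries in that way. The mechanoreceptor list summed to 67.9, 73.7 and 58.9 RPKM in miR_cKO 1 to 3, against 61.4, 63.4 and 64.4 RPKM in controls 1 to 3. The proprioceptor list summed to 37.9, 41.3 and 34.7 RPKM in miR_cKO, against 42.7, 42.6 and 37.3 RPKM in control. Of 6 and 5 tested genes in these lists, 0 passed the adjusted threshold. An unadjusted limma p under 0.05, which 5.16% of all tested genes had, was found for Shox2 (log2 change 0.43) among the mechanoreceptor markers, and for Cdh13 (0.53), Etv1 (-0.64) and Spp1 (-0.87) among the proprioceptor markers. Spp1, which encodes osteopontin, was at 0.422, 0.321 and 0.570 RPKM in miR_cKO 1 to 3, against 1.78, 1.44 and 1.68 RPKM in controls 1 to 3 (limma adjusted p = 0.107). Spp1 entered the test only through controls 1 to 3, since all its miR_cKO values were below 1 RPKM. Its direction and lack of overlap are therefore partly set by the filter. The groups of Spp1, Etv1, Cdh13 and Ntrk3 did not overlap, as in 10.9% of all tested genes, while those of Runx3, the other tested proprioceptor marker, did. Spp1 and Etv1 were lower in miR_cKO, and Cdh13 and Ntrk3 (log2 change 0.21) were higher. The sum of the list thus hides genes that lay on either side of the control level.

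Piezo1 moved with other markers. Mesenchyme markers summed to 202, 269 and 299.9 RPKM in miR_cKO 1 to 3, against 231, 386 and 425 RPKM in controls 1 to 3, and Piezo1 was likewise lowest in miR_cKO 1 and control 1 and highest in controls 2 and 3. All 9 mesenchyme genes were tested, 0 passed, and 9 had a log2 change below 0, with a median of -0.36. Endothelial markers summed to 78.6, 112 and 83.9 RPKM in miR_cKO, against 80.3, 93.6 and 86.8 RPKM in control. The endothelial, muscle, cartilage and macrophage sums were also lowest in miR_cKO 1 and control 1, so this was not particular to mesenchyme. Red cell markers ran otherwise, summing to 3249, 5901 and 6113 RPKM in miR_cKO, against 9355, 4570 and 1881 RPKM in control. The part of these tissues in the Piezo1 value was not tested; without controls 2 and 3, the libraries with the most muscle and mesenchyme RNA, the Piezo1 change was 0.23, on the single control left.

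Genes that work with these channels were described from 5 lists, which hold 61 genes, 33 of them tested. None passed (limma, adjusted over all genes), 1 had an unadjusted p under 0.05, and 16 had a log2 change above 0 and 17 below, with a median of -0.022. That gene was Anxa6, an annexin reported to limit rapidly adapting mechanical currents. Anxa6 was at 59.5, 59.9 and 49.6 RPKM in miR_cKO 1 to 3, against 67.1, 67.8 and 79.5 RPKM in controls 1 to 3, and its log2 change was -0.34, with an SE of 0.10 (adjusted p = 0.714 by limma). Its groups did not overlap, which was also so for 2 more of the 33 genes, the mechanically gated potassium channel Kcnk2 and Pkd2l2, beside 10.9% of all tested genes. In the list of Piezo partners and stomatins 8 of 9 genes were tested, with 2 changes above 0 and 6 below and a median of -0.061; Stoml2 had a change of -0.022 and the phosphatase Mtmr2 one of -0.046.

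Pirt, a membrane protein of sensory neurons that enhances Trpv1 and Trpm8 currents, was far more abundant than either channel. Pirt was at 87.0, 53.6 and 43.6 RPKM in miR_cKO 1 to 3, against 87.8, 52.1 and 92.3 RPKM in controls 1 to 3, the same division as for Trpv1. Its log2 change was -0.35 (SE 0.30, limma adjusted p = 1.00). Tmem100, which links Trpa1 and Trpv1, had a change of 0.055 at a mean of 1.31 RPKM. The heat-gated chloride channel Ano1 was at 0.788 ± 0.267 RPKM in miR_cKO and 0.914 ± 0.206 RPKM in control (SD, n = 3 each) and was not tested.

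Of the ASIC relatives 2 of 6 were tested. Asic4, which conducts no proton-gated current by itself, was at 3.26, 1.81 and 2.39 RPKM in miR_cKO 1 to 3, against 1.31, 1.38 and 4.95 RPKM in controls 1 to 3, with control 3 above and the other controls below every miR_cKO library. Its log2 change was 0.10 (SE 0.38). Pick1, which binds ASIC tails, had a change of -0.085 at 14.6 RPKM, and Asic5 was listed at 0 in all 6 libraries. Among other mechanically gated channels and hair-cell transduction genes 12 of 19 were tested, 0 passed, 10 had a change above 0 and 2 below, and the median was 0.047. The osmosensitive Tmem63b was the most abundant at 34.8 RPKM with a change of 0.052, followed by Tmem120a at 19.3 RPKM (0.027) and Tmem87a, with a change of 0.10.

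Genes whose log2 level followed a channel most closely over the 6 libraries were taken as the highest 3 Pearson correlations. For Piezo2 these were Orai2, a store-operated calcium channel, the transcription factor Ebf2 and the cell-surface receptor Cd44, at r of 0.997, 0.996 and 0.996. For Trpv1 they were Dpysl5, a collapsin response protein of growing axons, Osbpl8 and Sgip1, at 0.997, 0.996 and 0.992. For Asic3 they were Snn, Aldoc and Adarb2 at 0.994, 0.992 and 0.992. For Asic1 they were Cacna2d3, an auxiliary calcium channel subunit, Pde1b and Cd1d1, and for Asic2 Slc45a4, Psmc5 and Sphk1, all between 0.972 and 0.990. Fes, Rrp36 and Arl2bp led for Piezo1, and Vps28, Gm10677 and Sh3rf3 for Trpv2, at 0.989 to 0.997. With 6 libraries such values are common: 482 tested genes had an r above 0.9 with Piezo2, 475 with Trpv1 and 44 with Asic1.

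The promoters of Asic3 and Trpv1 are shown because these channels varied together; each runs from 250 bases before to 50 after the annotated start (RefSeq, GRCm38.p6, plus strand), and capitals mark matches to TGTGGT, the core letters bound by RUNX factors, searched on both strands (ACCACA on the other).
Asic3, chr5:24413201-24413500: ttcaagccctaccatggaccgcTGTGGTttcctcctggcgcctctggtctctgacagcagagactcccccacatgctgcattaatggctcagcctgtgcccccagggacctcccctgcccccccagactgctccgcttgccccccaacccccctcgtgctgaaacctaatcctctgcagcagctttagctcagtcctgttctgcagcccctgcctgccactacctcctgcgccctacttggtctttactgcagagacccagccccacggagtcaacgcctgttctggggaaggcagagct
Trpv1, chr11:73233899-73234198: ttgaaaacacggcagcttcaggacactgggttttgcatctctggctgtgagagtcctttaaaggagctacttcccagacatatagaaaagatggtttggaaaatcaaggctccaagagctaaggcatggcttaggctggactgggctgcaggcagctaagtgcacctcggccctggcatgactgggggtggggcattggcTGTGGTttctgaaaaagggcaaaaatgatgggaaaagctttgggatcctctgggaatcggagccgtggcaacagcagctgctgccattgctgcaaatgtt
Each window held 1 match, in both cases followed by further T bases. These letters occur in 16.8% of the 32851 promoters in the table. The Piezo1, Stoml3, Asic1, Asic2 and Trpm8 windows held none, Piezo2 and Trpa1 were not searched, and 2 of 3 overlapping or nearby Trpv2 windows held 1. Piezo2 correlated with Asic3 at r = 0.97 and with Trpv1 at 0.86, slightly above the 0.85 of Asic3 with Trpv1. The closest companion in level is thus missing from this search, and any part of the matches in the shared variation was not tested. A match is a description of these letters and not a binding site.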

How the data were processed

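Libraries were stranded and made from polyadenylated RNA isolated with Trizol, 3 per group, and reads were aligned with Bowtie to mm10 (version not given), per the labels' protocols and the submitters' processing notes. Neither the counting tool, the annotation nor the use of strand is stated in the labels or notes. The authors deposited 1 table with a column per library and no unit in its header. Its values were read as RPKM (FPKM cannot be told apart), because each gene's deposited values step in units of 1 read whose size decreased with annotated length (rank correlation -0.918 across 2592 genes with 1 transcript, which are not independent replicates). Whole reads, within 0.01, were recovered in 93.4% of 18983 genes (those detected in 2 or more libraries), and gave the depths and read numbers. Replicates varied beyond counting noise (mean chi-square per gene 10.2 to 23.3). A count test had been considered for counts, and limma was run because of the RPKM unit.

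Channels listed under older names (5 of 10, such as Fam38b for Piezo2 and Accn3 for Asic3) were matched through RefSeq synonyms. Values were compared as log2(RPKM + 1) with limma 3.58.1 in R 4.3.3 (trend and robust settings, Benjamini-Hochberg over 13118 genes with 1 RPKM or more in at least 3 libraries, threshold 0.05); fold changes on this scale understate those of low genes. On simulated data of these 13118 genes, limma recovered 92% of 100 genes given a log2 change of 1 and 37% of 100 given 0.5, and 3.73% of its calls were false. The simulated noise was drawn separately for each gene, with none shared across the genes of a library. The recovered shares are for genes drawn from all those tested, whose median SE was 0.106. The SEs of Asic3 (0.32) and Trpv1 (0.40) were larger, so these shares do not describe them. Alternatives were another pseudocount, filter, centring or limma setting, a replicate block and single libraries left out; dividing by sensory neuron markers and leaving out controls 2 and 3 were chosen after seeing the data. UTRs came from GENCODE M21 (mm10; the principal coding transcript with a UTR of at least 20 bases). Python 3.11.15, SciPy 1.17.1 and matplotlib 3.10.9 were used.

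Named genes were the 10 channels, the passing or otherwise the 3 most abundant tested genes of each companion list, the 3 closest correlates of each tested channel and tissue markers; a few markers are not reported here and were left out of their lists. Genes singled out by groups that did not overlap, low relatives, and the promoters and motif shown were chosen after their values were seen. The channels and lists were chosen with earlier results of these data known.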

Additional observations from a re-analysis of the deposited data

How the results depend on the processing

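No channel and no gene of the companion lists passed in any of the limma refits (lowest adjusted p of a tested channel 0.660); for the companion lists, the filter, limma setting, block and control refits were added after seeing the data. Of 70 recomputed changes of the 7 tested channels that could move, 60 kept the sign; the other 4 settings leave a change as it is and alter only its error. Trpv2 had changes of 0.020 with median centring and 0.00021 when divided by summed sensory neuron markers, and -0.14 to 0.16 with a library left out. Trpv1 ran from -0.43 to 0.20 with a library left out, and Piezo1 was at 0.23 without controls 2 and 3; the cause was not tested. With a library left out, Asic3 ran from -0.79 to -0.27, Piezo2 from -0.43 to -0.16, Piezo1 from -0.36 to -0.027, Asic2 from -0.25 to -0.026 and Asic1 from 0.035 to 0.21. Asic3 was at -0.83 with a pseudocount of 0.1 and at -0.88 when divided by the sensory neuron markers, against -0.50. The divided values of every channel carried no pseudocount, unlike those of the main fit. The shift of Asic3 can therefore not be credited to the division, and the part of each step was not tested. Without miR_cKO 1, Asic3 and Piezo2 had an unadjusted limma p under 0.05 (0.0434 and 0.0243, adjusted 0.789 and 0.774). Asic3 also had one without control 2 (0.0294, adjusted 0.893). The median change of the tested channels ranged from -0.20 to -0.026 with a library left out. The 8 genes called in the table (7 higher, 1 lower) became 2 (2 higher, 0 lower) with median centring, where 52.1% of all genes were above 0 instead of 40.4%. Limma called 0 with a minimum of 0.1 RPKM, without trend and robust settings, with a replicate block and without controls 2 and 3, where the unadjusted p was under 0.05 for 848, 709, 847 and 403 genes, and called 0 to 2 with a library left out, where it was for 441 to 1022. Replicate numbers did not pair the libraries (correlations of same-numbered deviations 0.36, 0.33 and -0.22). The order of mean channel levels was the same with a pseudocount of 0.1 and with each library left out. Depth limits Trpa1, Stoml3 and Trpm8, with at most 12 reads in a library.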

Other observations

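Trpm3, a heat-activated TRP channel of nociceptors that acts beside Trpv1 and Trpa1, lay below the filter but had groups that did not overlap; it was chosen after its values were seen. Trpm3 was at 1.07, 0.704 and 0.829 RPKM in miR_cKO 1 to 3, against 0.614, 0.549 and 0.665 RPKM in controls 1 to 3, and limma without the filter gave a log2 change of 0.21 (SE 0.10, adjusted p = 0.984). Of the 27 low companion genes with a value above 0, groups did not overlap for 4, which besides Trpm3 were Trpv3, Scnn1b and Tmc4, all lower in miR_cKO. Over all 6906 genes below the filter with a value above 0, groups did not overlap for 499, or 7.23%. Trpv3, the warmth channel of skin, averaged 0.0950 ± 0.0414 RPKM in miR_cKO and 0.193 ± 0.0465 RPKM in control (SD, n = 3 each; adjusted p = 0.940 by limma without the filter).

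Kcnk2, the mechanically gated potassium channel TREK-1 of sensory neurons, had little spread within its groups. Kcnk2 was at 2.73, 2.84 and 2.78 RPKM in miR_cKO 1 to 3, against 2.36, 2.32 and 2.14 RPKM in controls 1 to 3, with a log2 change of 0.21 and an SE of 0.091 (by limma, adjusted p = 0.979, unadjusted p = 0.0558). The mechanotransduction genes of the inner ear Tmc1 and Tmc2 averaged 0.114 and 0.00504 RPKM in miR_cKO and 0.0988 and 0.00432 RPKM in control.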
